A study of Rattus norvegicus with 6 samples.

Results

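Ribosome biogenesis is the assembly of ribosomes in the nucleolus, and the 57 genes described here encode factors that process ribosomal RNA (rRNA) and build the ribosomal subunits around it. They were taken as a fixed list and matched to probe sets annotated with a single gene symbol, with each gene read by its probe set of highest mean intensity over all 6 arrays. That gave a probe set for 56 of the 57 genes, out of 14217 genes on the array with a probe set of 1 symbol; Npm1 had none. The list was drawn up with results of this experiment known, so the calls of its members describe the data and are not an independent test of the group. The mean over all 6 arrays did not pick the genes of the list. It picked the probe set of each gene and set the intensity filter, which left Utp18 and Noc3l untested.

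The cells were an immortalized rat keratinocyte line, from back skin of newborn male Sprague-Dawley rats. One group of 3 samples was unirradiated and had no treatment, and a group of 3 samples had received 3 Gy of 56Fe ions at 1.01 GeV per nucleon, heavy charged particles of the kind met in space. By its title the study asked how these ions act on gene expression and cell cycle arrest. How long after irradiation the RNA was taken, and whether replicates came from separate cultures, is not stated in the labels. P-values therefore reflect the spread among these 6 samples, which may be technical. Each sample was hybridised to 1 Affymetrix rat array. The line is a single one, so the values speak for this line only. Of 11 keratinocyte markers 10 had a probe set and all 10 passed the intensity filter, with means from 989.6 to 6316. By contrast, 9 of 13 measured markers of fibroblasts, immune, endothelial, pigment and muscle cells lay below it, down to a mean of 1.07 for the pigment cell gene Mlana. The summed intensity of the keratinocyte markers was 28600 to 32630 on the unirradiated arrays and 23385 to 26180 on the irradiated ones, and 5 of the 10 were called lower by limma (Tp63, Sfn, Krt15, Krt17 and Krt14, with log2 changes from -0.62 to -0.38), while Itgb4 and Cdh1 stood at 0.07 and 0.13. The sum of the other markers was 538.7 to 601.5 and then 435.6 to 497.5. That sum is mostly the collagen gene Col3a1, which fell (log2 change -0.46); without it the sums were 151.3 to 166.3 and 156.8 to 196.5, and the dim collagen gene Col1a1 went from a mean of 17.3 to 36.1. The part of these cell markers in the results below was not tested.

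A ribosome starts as a long precursor rRNA made by RNA polymerase I. Small nucleolar ribonucleoproteins (snoRNPs) modify it, a large assembly called the small-subunit processome folds and cuts the part that becomes the small subunit, and a separate set of factors matures the large subunit; exonucleases of the RNA exosome trim the ends and remove the spacers. In proliferating epithelial cells these genes are expressed strongly and are classical targets of the growth regulator Myc, which binds a DNA hexamer called the E-box.

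That hexamer stood in the promoter windows of all 4 members shown here, which were picked for their low log2 changes. It also stood in 41.5% of the members with a window and in 10.2% of the other tested genes. Binding of Myc to the hexamer was not tested. Below are the 30 bases around it in the 4 members past the test's threshold with the lowest log2 changes, read 5′ to 3′ on the gene's strand from RefSeq promoter windows (rat build GRCr8), with the hexamer CACGTG in capitals. All 4 matches lie just after the annotated gene start, with the first base of the match 3 to 30 bases past it. The other called members with the hexamer were mixed in this. Relative to the gene start, the match lay at 20 in Tsr1, at -57 in Tma16 and at -156 and -1 in Mybbp1a.
Wdr46: aaaggagttttgCACGTGgatcgtcgttcc
Gpatch4: agtcgtgtatggCACGTGcttccacggaga
Pum3: gagcttcttcccCACGTGtgcggtgagtgt
Rrp12: gctgagaatacaCACGTGggttctgctgtg
These stretches lie at chr20:4947462-4947491 (minus strand), chr2:175807780-175807809 (plus strand), chr1:234527571-234527600 (minus strand) and chr1:250655298-250655327 (minus strand), in that order.

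After irradiation, small-subunit, large-subunit and snoRNP factors had mostly lower values. The steepest falls were in Wdr46, a scaffold of the small-subunit processome, in Gpatch4, a nucleolar protein, in Pum3, a factor of large-subunit maturation, and in Rrp12, needed for processing and export of pre-ribosomes. Of 54 members bright enough to be tested, 9 fell, 0 rose and 45 did not pass limma's threshold (an adjusted p under 0.05 over all 18632 tested probe sets); at an unadjusted p under 0.05, 27 were lower and 1 was higher. Over all tested probe sets, 0.564% were called lower and 1.50% higher, and 5.91% were lower at an unadjusted p under 0.05. The log2 change was below 0 in 50 of 54 members, against 49.6% of all tested probe sets, and its median was -0.21, against 0.00 over all tested probe sets. All log2 changes here are irradiated minus unirradiated on the log2(intensity + 16) scale, which understates the change of dim genes, and an intensity is the deposited linear value of a probe set. In bulk RNA, a lower level per cell and fewer cells that express a gene cannot be told apart.

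The number of calls moved with single arrays and with the variance model. Without unirradiated replicate 1 or without irradiated replicate 2, 1 member was called, Wdr46; without unirradiated replicate 2, irradiated replicate 1 or irradiated replicate 3, 4 were called. The count was 2 with eBayes without a trend and 3 without the filter on low values, where 31042 probe sets were tested. The calls over all tested probe sets moved too: 105 were lower with all 6 arrays, the trend and the filter, 44 to 69 without an array, 26 without a trend and 48 without the filter. Of the called members, Pum3 and Tsr1 kept their calls in 3 of the 6 fits without an array, Rrp12 and Tma16 in 2, Exosc4, Mybbp1a and Gpatch4 in 1 and Pwp2 in 0, with a highest adjusted p of 0.185 by limma. Over the same fits the median of the members was -0.25 to -0.20.

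**Figure D1:**
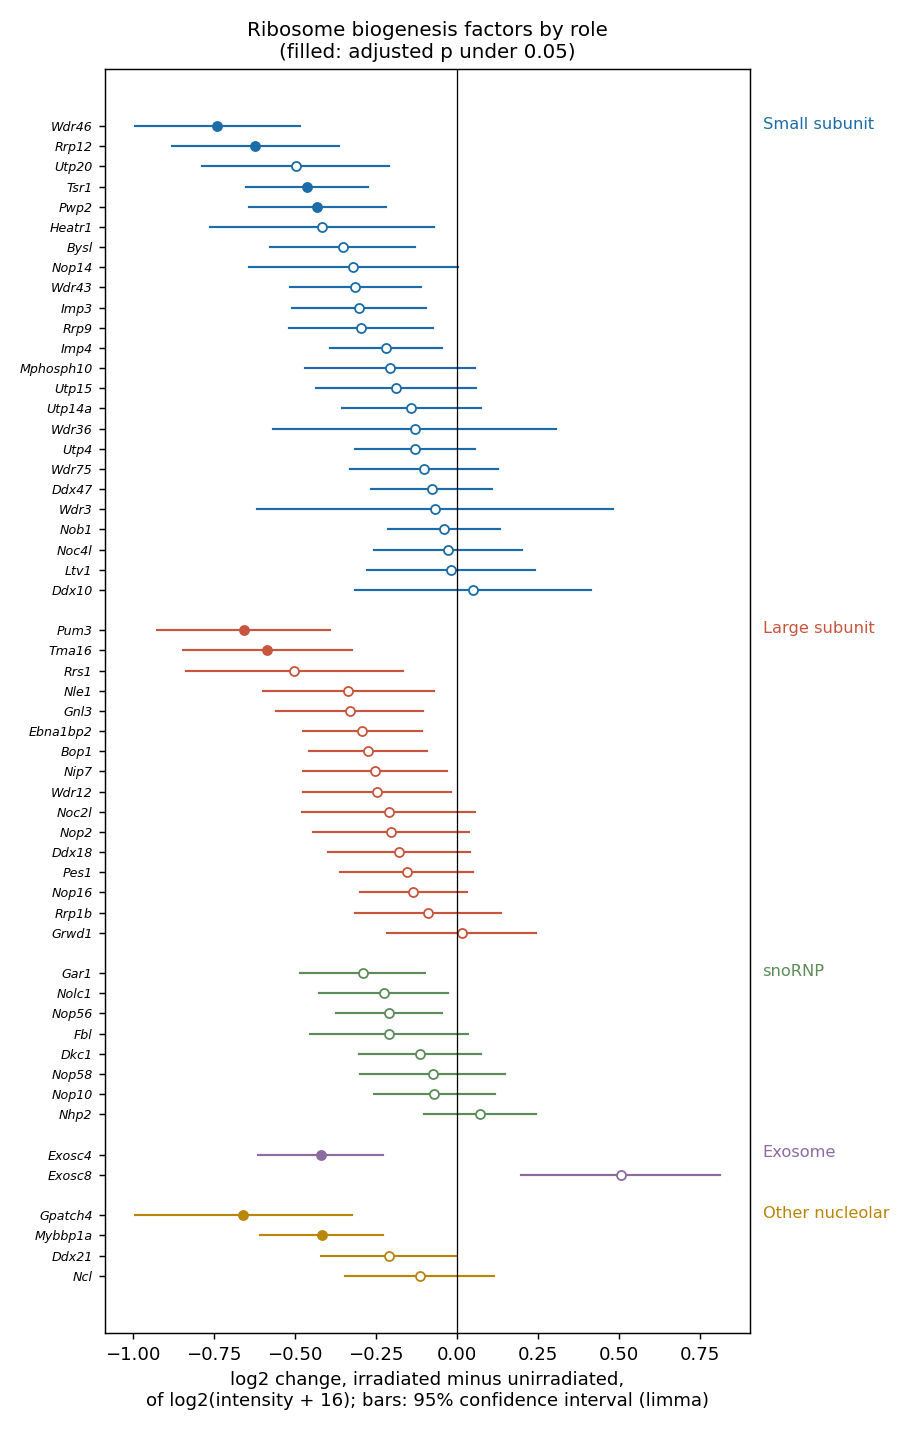
Log2 change of each of the 54 tested members (horizontal axis, irradiated minus unirradiated, of log2(intensity + 16)), grouped by role, with its 95% confidence interval from limma; filled points passed the adjusted threshold. Of the 54 points, 50 lie left of 0, and the 9 filled points all do.

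Among the small-subunit factors, 4 of 24 tested fell, 0 rose and 20 did not pass, and 23 of 24 log2 changes were below 0, with a median of -0.21. The processome scaffold gene Wdr46 had intensities of 165.4, 187.8 and 186 on the unirradiated arrays and 90.4, 106 and 107.7 on the irradiated ones. Every irradiated value was well under every unirradiated one, a 1.77-fold lower mean and a difference of -0.74 ± 0.12 in log2 units (SE; limma adjusted p = 0.0051). Its fall passed the threshold in all 17 alternative fits, the only member of which this held.

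Rrp12 was at 168.4, 162.6 and 179.9 without and 120.1, 98.4 and 97.7 with irradiation. The groups did not overlap, and the mean was 1.62-fold lower (log2 change -0.62 ± 0.12 SE; limma adjusted p = 0.0166). Its probe set can detect several transcripts of the gene; another probe set, almost as bright, had a log2 change of -0.42 and a dimmer one of -0.32, and neither passed. Tsr1, a GTPase-like protein that stays on late small-subunit precursors, was at 651.6, 617.5 and 633.1 and then at 420.8, 451.7 and 497.4. The unirradiated values of Tsr1 lay close together, and its mean was 1.39-fold lower after irradiation (log2 change -0.46 ± 0.09 SE; limma adjusted p = 0.0150).

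Pwp2, another processome scaffold, fell 1.37-fold, from 336.7, 316.2 and 310.2 to 256.2, 224 and 222.7 (log2 change -0.43 ± 0.10 SE; limma adjusted p = 0.0409). It lost its call in each of the 6 fits without an array. Just outside the threshold lay Utp20, a giant processome component, with 110.2, 123.2 and 96.1 against 68.3, 78 and 72.2 and an adjusted p of 0.0868 by limma; its groups did not overlap either.

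The remaining small-subunit factors shaded from moderate to no difference. Heatr1, which acts in early processing and in RNA polymerase I transcription, had a log2 change of -0.42, Bysl, a late assembly factor, of -0.35, and Nop14 and Wdr43 of -0.32 and -0.31. Imp3, Imp4 and Mphosph10, which form a trimer in the processome, had changes of -0.30, -0.22 and -0.21, and Rrp9, a protein of the snoRNP that guides the processome, of -0.30. Between -0.19 and -0.07 lay Utp15, Utp14a, Wdr36, Utp4, Wdr75, Ddx47 and Wdr3, components of the small-subunit pathway; of these Wdr3 and Wdr36 varied most among the unirradiated arrays, from 27.2 to 81.2 and from 175.7 to 383.7. At the other end were Ltv1 (-0.02), Noc4l (-0.03), the endonuclease gene Nob1 (-0.04), which makes the last cut of small-subunit rRNA, and the RNA helicase gene Ddx10 (0.05). Over the fits without an array, 8 tested members took both signs: Ddx10, Ltv1, Noc4l, Nob1, Wdr3, Wdr36, the large-subunit gene Grwd1 and the snoRNP gene Nop58. Imp4, the brightest probe set of this group, was at 1397, 1416 and 1491 without and 1344, 1193 and 1160 with irradiation, without overlap, yet with an adjusted p of 0.232 by limma.

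Of the large-subunit factors, 2 of 16 tested fell, 0 rose and 14 did not pass. Of these 16 log2 changes 15 were below 0, and the median was -0.25. Pum3, a Pumilio-domain protein of large-subunit assembly, was at 492.9, 404.2 and 418.3 without and 328.7, 243.8 and 247.5 with irradiation. All 3 irradiated values lay below the unirradiated ones, a 1.60-fold lower mean (log2 change -0.66 ± 0.12 SE; limma adjusted p = 0.0137). A dimmer probe set of Pum3 stood at -0.42, outside the threshold (limma adjusted p = 0.0624).

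Tma16, which binds pre-large-subunit particles, fell 1.55-fold, from 221.1, 239.5 and 201.7 to 164, 135.3 and 127.2 (log2 change -0.59 ± 0.12 SE; limma adjusted p = 0.0242). Rrs1, which helps load the small rRNA of the large subunit, had a log2 change of -0.50 that did not pass: its unirradiated values were 310.1, 389.3 and 233.8 and its irradiated ones 197.8, 239.7 and 196.4, so that 1 array of each group overlapped. Without unirradiated replicate 3, the lowest of its group, Rrs1 passed (limma adjusted p = 0.0269). Nle1 and the nucleolar GTPase gene Gnl3, known as nucleostemin, had changes of -0.34 and -0.33, and Ebna1bp2 of -0.29. The complex of Pes1, Bop1 and Wdr12, which is needed to mature large-subunit rRNA, had -0.15, -0.27 and -0.25. Nip7, Noc2l, the rRNA methyltransferase gene Nop2, the helicase gene Ddx18 and Nop16 lay from -0.25 to -0.13 and did not pass. Least different were Rrp1b (-0.09) and Grwd1 (0.01), a chaperone of a large-subunit protein. Gnl3 had the brightest probe set of the group, at 1128, 1222 and 986.7 against 960.5, 924.1 and 761.3.

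The snoRNP proteins had smaller differences and no calls. Of 8 tested, 0 fell and 0 rose by limma, while 3 had an unadjusted p under 0.05 in the lower direction, and 7 of 8 log2 changes were below 0, with a median of -0.16. Nop56, a core protein of the box C/D particles that guide rRNA methylation, was at 2082, 1954 and 1875 without and 1763, 1614 and 1724 with irradiation. Its groups did not overlap, and the log2 change was -0.21 ± 0.08 (SE; limma adjusted p = 0.221). Its partners in that particle, the methyltransferase gene Fbl and Nop58, had changes of -0.21 and -0.08.

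In the H/ACA particles, which guide pseudouridylation, the 4 core proteins diverged in sign: Gar1 had a log2 change of -0.29, the pseudouridine synthase gene Dkc1 of -0.11, Nop10 of -0.07 and Nhp2 of 0.07. The 95% confidence intervals of Dkc1 (-0.30 to 0.07), Nop10 (-0.26 to 0.12) and Nhp2 (-0.10 to 0.24) include 0. Nolc1, a chaperone that escorts snoRNPs, had -0.23, and 2 further probe sets of it gave -0.18 and -0.22. With quantile normalization the snoRNP median was -0.12, beside -0.23 for the small-subunit and -0.25 for the large-subunit factors. With the median of probe sets of the same twentieth of intensity subtracted, the medians were -0.099, -0.22 and -0.25 in that order, and Nop56 stood at -0.12 and Nop10 at 0.02. The pooled SD of the snoRNP median between arrays of a group was 0.07, and the difference between the role groups was not tested.

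**Figure D2:**
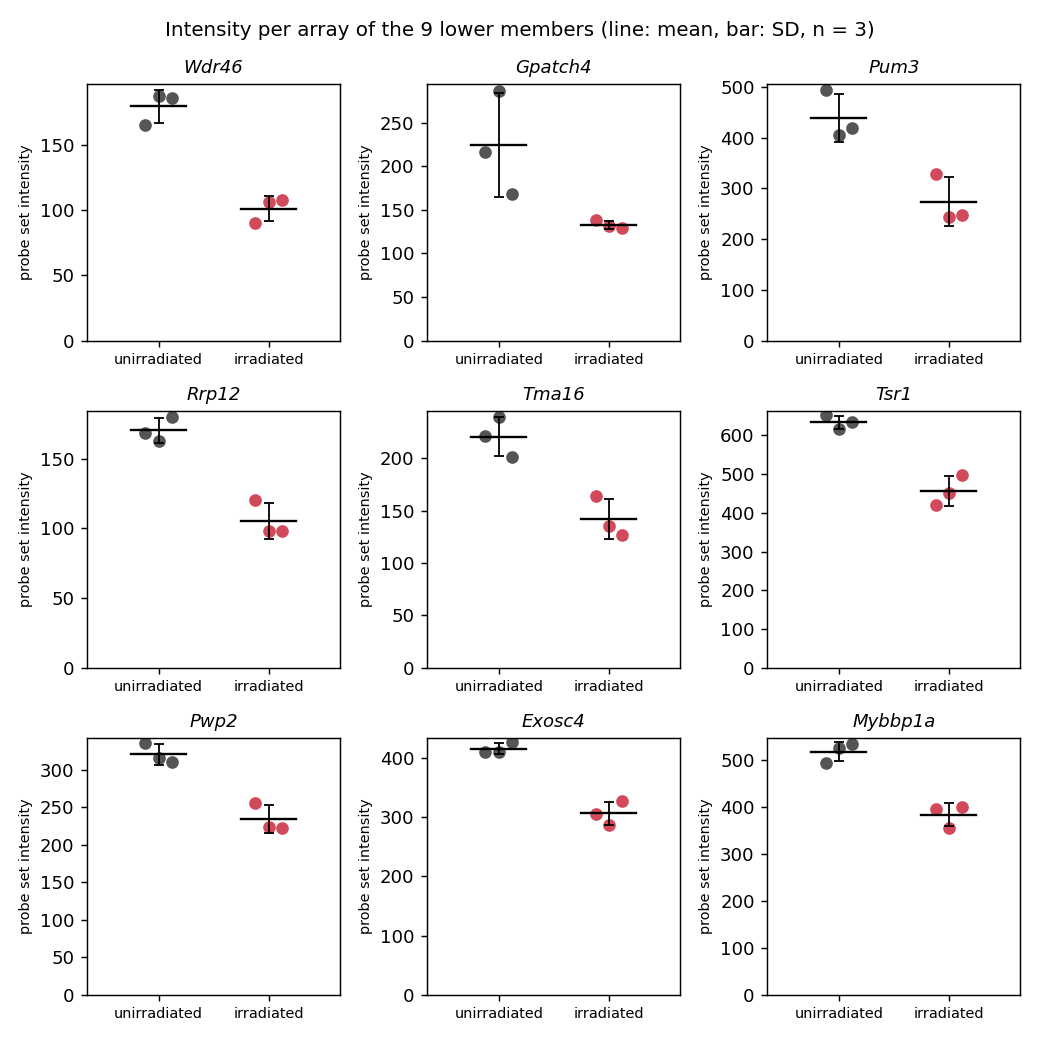
Probe set intensity (linear axis from 0) on each of the 3 unirradiated and 3 irradiated arrays for the 9 members that fell, with the mean as a line and the SD as a bar (n = 3). In each panel all irradiated points lie below all unirradiated points, and Gpatch4 shows the widest unirradiated spread, from 168.7 to 286.9.

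Of 4 other nucleolar proteins tested, 2 fell, 0 rose and 2 did not pass. Mybbp1a, a nucleolar protein linked to transcription and rRNA processing, went from 495.3, 525.2 and 534 to 396.6, 355.3 and 401.1. Its groups stood apart, and the log2 change was -0.42 ± 0.09 (SE; limma adjusted p = 0.0274). Gpatch4 was at 216.9, 286.9 and 168.7 without and at 138, 131.9 and 129.2 with irradiation, a log2 change of -0.66 ± 0.15 (SE). At an adjusted p of 0.0497 by limma it was the member nearest the threshold from inside, and it lost its call with pseudocounts of 1 and 64 (adjusted p = 0.0529 and 0.0532). Its 3 other probe sets had log2 changes of -0.75, -0.38 and -0.72, the first of which passed (limma adjusted p = 0.0425). The helicase gene Ddx21 and nucleolin (Ncl) had changes of -0.21 and -0.12 and did not pass.

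The 2 exosome subunits of the list differed in sign. Exosc4, part of the ring of the RNA exosome, fell from 410.4, 409 and 426.4 to 305.9, 287.1 and 326.4, and its log2 change was -0.42 ± 0.09 (SE; limma adjusted p = 0.0293). Exosc8, also of the ring, was at 238.2, 279.9 and 184.3 without and at 306.5, 390.1 and 312.4 with irradiation. All 3 irradiated values of Exosc8 were above the unirradiated ones, with a log2 change of 0.50 ± 0.14 (SE) that did not pass (limma adjusted p = 0.109).

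The members' other probe sets gave a second reading on the same arrays. Of the 56 genes, 14 had more than 1 probe set, and all 20 of the other probe sets bright enough to be tested had the sign of the chosen one; 1 of them passed. The 6 other probe sets of called members (Rrp12, Pum3 and Gpatch4) were all below 0. Members with a probe set below the filter were Utp18 and Noc3l: Utp18 was at 6.8, 12 and 12.1 against 12.3, 13.7 and 16.6, and Noc3l at 5.6, 3.2 and 7.7 against 10.3, 8.9 and 12.5. Both were higher on each irradiated array, at intensities too low to be tested.

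Read without a threshold, the irradiated values lay wholly below the unirradiated ones in 26 of 54 members and wholly above in 1, Exosc8. Over all tested probe sets these shares were 8.91% and 10.2%. Tested probe sets of like brightness showed no such shift in their median: those between the members' quartiles of mean intensity (261.4 to 778.2) had a median log2 change of -0.01, with 52.3% below 0 and 1.24% called lower. With the median of probe sets of the same twentieth of intensity subtracted, the members' median was -0.20. Quantile normalization gave 9 calls and a median of -0.22.

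**Figure D3:**
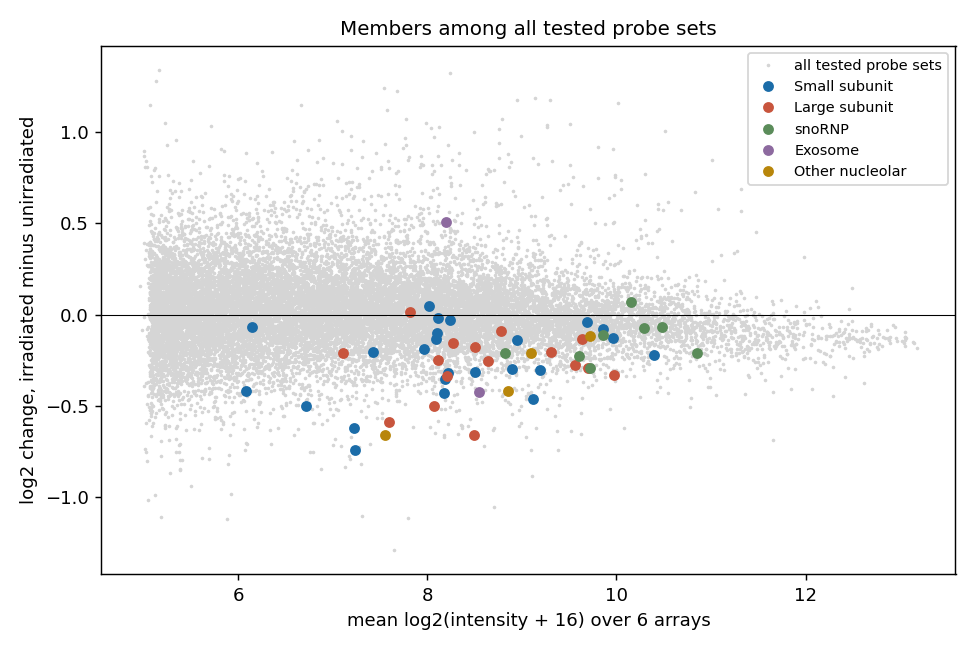
Log2 change against mean log2(intensity + 16) over 6 arrays for all 18632 tested probe sets (grey) and the 54 tested members, coloured by role. The members spread over the middle and upper range of intensity and sit mostly below 0, with a median of -0.21.

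The shift was present on each irradiated array. Relative to the unirradiated mean of each gene, the median over the 54 members was 0.01, 0.06 and -0.09 on the unirradiated arrays and -0.24, -0.21 and -0.23 on the irradiated ones, in log2 units. Unirradiated replicate 3 was thus the low array of its group, and the irradiated arrays lay close together below it. For the small-subunit factors the irradiated medians were -0.19, -0.24 and -0.23, for the large-subunit factors -0.26, -0.21 and -0.28, and for the snoRNP proteins -0.15, -0.13 and -0.18. The snoRNP median of unirradiated replicate 3, -0.10, came nearest to its irradiated arrays. Over all tested probe sets the medians ran from -0.01 to 0.01.

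**Figure D4:**
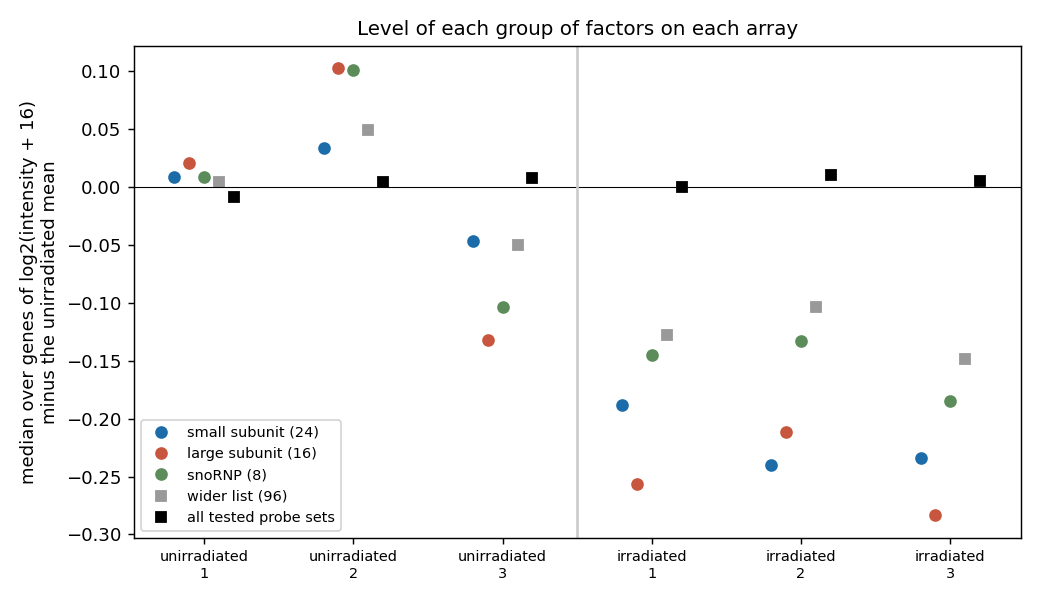
Median over genes of log2(intensity + 16) minus each gene's unirradiated mean (vertical axis) on each of the 6 arrays, for small-subunit, large-subunit and snoRNP factors, a wider list of ribosome biogenesis genes and all tested probe sets. The irradiated medians of the 3 role groups lie between -0.28 and -0.13, while all tested probe sets stay within 0.01 of 0.

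A wider list of 104 further ribosome biogenesis genes, put together by function, had mostly lower values without any call. The members, among them every member called lower, were left out of it. Its counts and median are therefore not independent of how the members were chosen. Of 96 tested, 0 fell and 0 rose by limma. At an unadjusted limma p under 0.05, 19 were lower and 2 were higher, while 5.91% of all tested probe sets were lower. The log2 change was below 0 in 72 of 96, against 49.6% of all tested probe sets, with a median of -0.12. The irradiated values lay wholly below the unirradiated ones in 33, against 8.91% of all tested probe sets. They lay wholly above in 2, against 10.2% of all tested probe sets. These were Las1l and Nop9, with log2 changes of 0.31 and 0.30 that did not pass. The lowest changes were in Znhit6 (-0.43), which takes part in box C/D snoRNP assembly, Emg1 (-0.43), a methyltransferase of small-subunit rRNA, Rpf2 (-0.42), the partner of Rrs1, and the exosome gene Exosc5 (-0.41), none of which passed. Wider small-subunit factors had a median of -0.14, large-subunit factors of -0.12, snoRNP genes of -0.11 and exosome genes of -0.12. The genes of the wider list named here were picked after their values were seen.

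The rule for members did not use promoter sequence. The members are of a class known as Myc targets and were listed with results known, so the shares below are no independent evidence. RefSeq windows from 250 bases before to 50 bases after the gene start were found for 53 of the 57 genes, and the E-box hexamer CACGTG, which reads the same on both strands, stood in 22 of them (41.5%). It stood in 7.08% of the windows of all 27457 gene symbols in the table, in 10.2% of the 8653 other genes tested on the arrays and in 24.4% of the 90 windows of the wider list. By role, 9 of 24 small-subunit, 9 of 15 large-subunit and 2 of 8 snoRNP genes held it. Of the 9 genes that fell, 8 had a window and 7 of these held the hexamer: Wdr46, Rrp12, Tsr1, Pum3, Tma16, Gpatch4 and Mybbp1a, but not Pwp2. In the 250 bases before the gene start alone, 2 of these 8 held it, beside 11 of all 50 tested members with a window (22.0%).

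The members with the hexamer had the lower median. The 20 tested members that held it had a median log2 change of -0.33, with a range from -0.74 to -0.02, and the 30 without it a median of -0.16, with a range from -0.43 to 0.50. Of the 20 with it, 7 were genes called lower, and of the 30 without it, 1 was. The member list was drawn up with results known, so this split may reflect that choice and is no independent evidence. In the wider list the medians were -0.20 for 21 genes with the hexamer and -0.09 for 63 without. Among the other 8653 tested genes the medians were -0.02 for 883 genes with it and 0.00 for 7770 without. Of the 883 genes, 15 (1.70%) were called lower and 14 higher. Of the 7770 genes, 47 (0.605%) were called lower and 162 higher. These are descriptions, and no test of the difference was made. Much of the count rested on the bases just after the gene start: in the 250 bases before it, 12 of 53 members held the hexamer, against 6.18% of all genes.

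**Figure D5:**
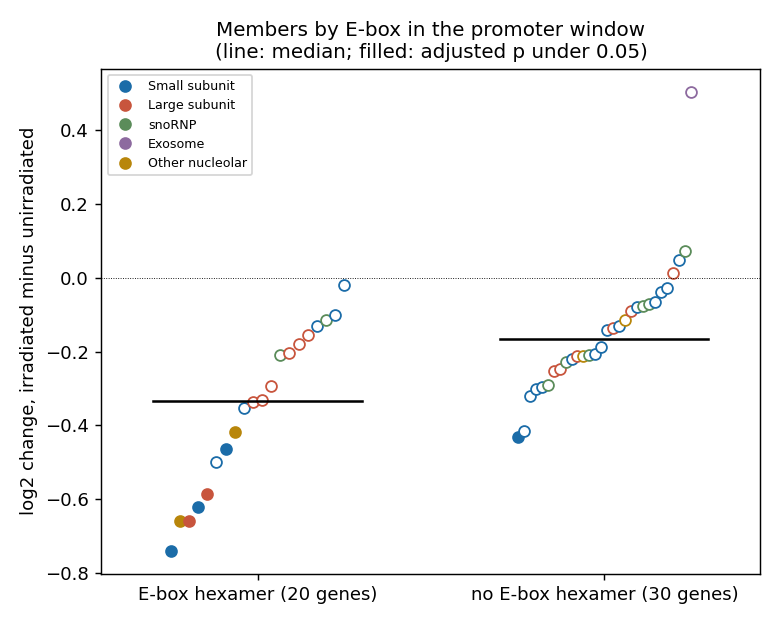
Log2 change (vertical axis) of the 50 tested members with a promoter window, split by whether the window holds the E-box hexamer and coloured by role; lines are medians and filled points passed the adjusted threshold. The 20 genes with the hexamer have a median of -0.33 and the 30 without it -0.16, and 7 of the 8 filled points are on the side with the hexamer.

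A second motif was common in the same windows. CCGGAAG, the core that ETS factors bind, was searched on both strands. It was found in 26 of 53 members, in 45 of the 90 windows of the wider list and in 9.63% of all genes. Its share among the other genes tested on the arrays was not counted. Among members the motif stood in 6 of 8 snoRNP genes and in 4 of the 8 called members with a window. The Wdr46 promoter shows it as a pair of overlapping matches on opposite strands. Its 250 bases before the gene start, at chr20:4947503-4947752 (minus strand, GRCr8), are given with these matches in capitals.
Wdr46: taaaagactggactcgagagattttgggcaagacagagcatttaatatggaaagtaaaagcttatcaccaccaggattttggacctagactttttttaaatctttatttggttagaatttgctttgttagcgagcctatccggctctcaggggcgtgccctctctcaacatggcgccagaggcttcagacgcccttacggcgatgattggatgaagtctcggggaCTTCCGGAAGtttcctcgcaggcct
A match shows only that these letters occur in the window.

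Myc, which belongs to another group of genes, was at 1131, 1197 and 1123 without and 797.9, 834.7 and 768.8 with irradiation. Its groups did not overlap, and its log2 change was -0.51 ± 0.08 (SE; limma adjusted p = 0.0033; 0.0539 with eBayes without a trend). A link between the lower Myc values and those of the members was not tested.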

How the data were processed

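RNA was extracted with Trizol and labelled with biotin from polyA RNA, per the labels' protocols, and BRB ArrayTools 3.3.0 was the software used, per the series' design text. The deposited table holds linear probe set intensities of 6 arrays. The mean left after trimming 2% at each end was 150.04 to 150.05 on each array, so the table was kept as deposited by the authors; their summary method is not given in the sources used here. Array correlations of log2 values over tested probe sets were 0.984 to 0.988 within and 0.980 to 0.984 between groups.

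From 31099 probe sets, 57 controls and those below the 40th percentile of mean intensity were left out, and 18632 were tested. Log2(intensity + 16) was modelled by limma 3.58.1 under R 4.3.3, with lmFit and eBayes using an intensity trend, two-sided and with Benjamini-Hochberg adjustment over all tested probe sets. The number of arrays limits the precision, and the median SE was 0.14. Symbols came from the platform annotation (20826 probe sets with 1, 436 with several, 9780 with none); 0 differed by Entrez ID from the RefSeq table. Promoter windows were matched by symbol.

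The members and lists were chosen with earlier results of these data known. Named genes were all called members, in each role the 2 lowest, 2 highest and brightest, and others for their role. The alternatives tried were a floor of 10, pseudocounts of 1 and 64, quantile, median and cyclic loess normalization, no filter or one at the 60th percentile, eBayes without trend or robust, averaging a gene's probe sets, subtracting the median of the same of 20 intensity strata, and leaving out each array. The shorter promoter window, the ETS motif and the background of tested genes were chosen after seeing the data.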

Additional observations from a re-analysis of the deposited data

How the results depend on the processing

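The median log2 change of the members was -0.25 to -0.20 over the fits without 1 array and -0.23 to -0.20 over the other alternatives, and no member was called higher in any of them. The number called lower was 1 to 6 without 1 array and 3 without a filter on low values. It was 2 with eBayes without a trend and 8 to 10 in the others. Fewer arrays give less power, but the cause of the lost calls was not tested in any of these fits. Of the named genes, no called one changed direction. In the wider list, 1 gene was called lower when a gene's probe sets were averaged, 0 to 1 were called without 1 array, and the median was -0.16 to -0.089 without 1 array. The E-box count among members was 12 with the bases before the gene start alone, as against 22. No paired analysis was made, because the labels do not state a pairing between the groups and replicate numbers were given here in accession order.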
